A study of Arabidopsis thaliana with 6 samples.

Results

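RAP (AT2G31890) and AT3G21300 are nuclear genes of Arabidopsis thaliana whose products act on RNA. They are 2 of 13356 genes that a probe set naming a single gene measured here, RAP through probe set 263471_at and AT3G21300 through 258034_at. Each had 1 such probe set, and no probe set with several genes listed either of them. They were chosen by the measured difference between the genotypes on these same arrays, so their levels and differences are given as a description, without a test.

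RAP is named after its RAP domain, a predicted RNA-binding domain, and in Arabidopsis it is known for the maturation of the 16S rRNA of the plastid, the RNA of the small ribosomal subunit. Plastid rRNAs are transcribed as one long precursor, and nucleases, helicases, methyltransferases and GTPases, all made from nuclear genes, cut, modify and fold it into ribosomes. AT3G21300 belongs to a family of RNA methyltransferases, enzymes that place methyl groups on bases or riboses of rRNA and tRNA; which RNA it modifies and in which compartment is not given in the sources used here. The RNA of either organelle ribosome was not analysed here. Of 11 rRNA genes looked for by locus number among probe sets naming a single gene, 0 were matched. The gene table numbered the plastid gene rbcL in another way than the list did, so the search may have missed plastid rRNA genes. The 0 therefore does not show that the array lacks them.

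The series compared leaves of the wild-type accession Col-0 with leaves of pam48, a mutant in the Col-0 background whose second name, mterf6-1, refers to MTERF6, a gene of the mTERF family of plastid and mitochondrial proteins related to mitochondrial transcription termination factors. Each genotype had 3 arrays, numbered 1 to 3 as the labels number their biological replicates. All plants were raised in soil under days of 16 h and nights of 8 h, with light of about 120 µmol photons m-2 s-1, and leaves of 1 age class were taken from rosettes with 8 leaves. The labels do not describe the lesion in pam48 or a second allele. MTERF6 (AT4G38160) had 0 listed probe sets naming a single gene, and the level of the mutated gene was not analysed here.

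The array medians lay between 6.38 and 6.55 on the log2 scale. The excess of the 3′ over the 5′ actin control probe set, a sign of RNA integrity, was 2.75 on pam48 replicate 2 and 1.60 to 2.01 on the other arrays. Of 12 leaf markers 4 were measured (LHCB4.2, RCA, rbcL and SBPASE). Their summed level on the log2 scale was 15.41 to 15.49 in wild type and 15.04 to 15.40 in pam48. Of 18 markers of other tissues and cells 4 were measured, with sums of 6.90 to 8.85 in wild type and 6.91 to 9.85 in pam48. The upper ends came from PYK10, a gene of root tissue, at 8.51 on wild type replicate 1 and 9.74 on pam48 replicate 2. No marker was called, but the genotypes did not overlap in LHCB4.2 (−0.58 ± 0.21), SBPASE (−0.45 ± 0.13) and rbcL (0.87 ± 0.19) among the leaf markers, nor in CLV3 of the shoot apex (−0.31 ± 0.11), EXPA7 of root hairs (−0.21 ± 0.13) and FMA of guard cells (−0.41 ± 0.13). CLV3 and EXPA7 were dim on all arrays, at 3.20 to 3.70 and 3.89 to 4.35, and the gap between genotypes in EXPA7 was 0.03. Of all probe sets 0.778% were called, and in 20.5% the genotypes did not overlap, in either direction. The part of these markers in the differences described here was not tested. None was at 0, since the values have no zero. In whole leaves, fewer cells that express a gene and less RNA per cell cannot be told apart.

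RAP RNA was higher in pam48 than in wild type. Its level was 8.36, 8.85 and 8.80 on wild type replicates 1, 2 and 3, and 10.04, 10.14 and 10.15 on pam48 replicates 1, 2 and 3 (log2). The genotypes did not overlap, and a gap of 1.19 separated the highest wild-type array from the lowest mutant array. The means were 8.67 ± 0.27 and 10.11 ± 0.06 (SD, n = 3), a difference of 1.44 ± 0.15 (SE) or 2.71-fold. The 3 mutant arrays lay close together, while wild type replicate 1 was lower than the other wild-type arrays. Between arrays of the same replicate number the difference was 1.68, 1.28 and 1.35.

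AT3G21300 RNA was also higher in pam48, by a similar factor. Its level was 7.17, 7.06 and 6.58 on wild type replicates 1, 2 and 3, and 8.06, 8.68 and 8.52 on pam48 replicates 1, 2 and 3. Again the genotypes did not overlap, with a gap of 0.90 between the highest wild-type and the lowest mutant array. The wild-type mean was 6.94 ± 0.31 and the pam48 mean 8.42 ± 0.32 (SD, n = 3), which is a difference of 1.49 ± 0.22 (SE) or 2.80-fold. Wild type replicate 3 was the lowest array of its genotype and pam48 replicate 1 the lowest of the mutant. By replicate number the differences were 0.90, 1.63 and 1.93, a wider range than that of RAP.

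**Figure D1:**
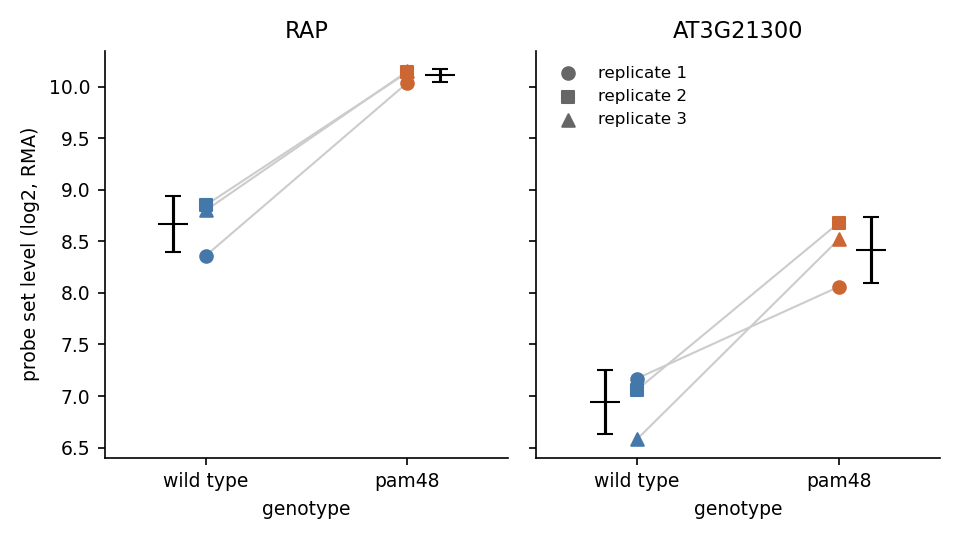
Level of RAP (left) and AT3G21300 (right) on each array, as log2 values of the probe set, for wild type and pam48. Symbols mark the replicate number, grey lines join arrays of the same number, and the bars beside the points are the mean ± SD (n = 3); levels of the 2 probe sets are not comparable with each other. In both genes all 3 pam48 arrays lie above all 3 wild-type arrays, and the pam48 arrays of RAP lie between 10.04 and 10.15.

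In the comparison across the whole array, limma called 177 of 22746 probe sets (0.778%) at a Benjamini-Hochberg adjusted p under 0.05, of which 136 were higher (0.598%) and 41 lower (0.18%) in pam48. RAP and AT3G21300 were among those called higher, which follows from their choice. Among the 73 called rises of probe sets with 1 gene theirs were numbers 13 and 12 by size. The genotypes did not overlap in 20.5% of all probe sets, and in 9.14% with pam48 higher. When the arrays were left out one at a time, each gene was called in 1 of 6 fits, the one without pam48 replicate 1. Their differences moved little in these fits, between 1.28 and 1.53 for RAP and between 1.31 and 1.66 for AT3G21300. Without pam48 replicate 2, where the actin control had its largest 3′ excess, they were 1.42 and 1.35. With quantile normalization AT3G21300 was no longer called, at a difference of 1.46.

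The call rests on the spread between replicates too, so this spread is also only described. The SD within genotypes was 0.195 for RAP, near the median of all probe sets (0.182), and 54.9% of probe sets had a smaller one. For AT3G21300 it was 0.316, and 80.8% of probe sets had a smaller one.

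The neighbours of both loci were compared in the same way. Within 10 places of the gene table on each side, 6 neighbours of RAP and 5 of AT3G21300 had a probe set with 1 gene, and none of these 11 was called by limma (0.778% of all probe sets were), while 1 had an unadjusted p under 0.05 (13.5% of all). That one was MRL7-L, a gene 8 places from RAP, at 8.91, 9.33 and 9.25 in wild type and 9.69, 9.61 and 9.72 in pam48. Its difference was 0.51 ± 0.14 (limma adjusted p = 0.184). The nearest measured neighbours of RAP were AT2G31850 (−0.24 ± 0.11) and CHX21, a gene of the cation/proton exchanger family (0.01 ± 0.14). On either side of AT3G21300 they were AT3G21290 (−0.08 ± 0.16) and AT3G21310 (−0.03 ± 0.21). The differences of CHX21, AT3G21290 and AT3G21310 were within their errors. AT2G31850, CHX21 and AT3G21310 were dim, with wild-type means of 4.67, 3.33 and 4.62, which limits what their differences can show. Of the 11 neighbours, 5 were left when the 40% of probe sets with the lowest means were removed. Among the 6 of RAP the genotypes did not overlap in 2 with pam48 higher and in 1 with pam48 lower (20.5% of all, either direction). The sign turned with the processing in CHX21 and AT3G21310, and without wild type replicate 3 in AT3G21290. The neighbours of AT3G21300 lay between −0.16 and 0.10. None of the loci directly beside RAP, up to 4 places away, was measured by a probe set with 1 gene.

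**Figure D2:**
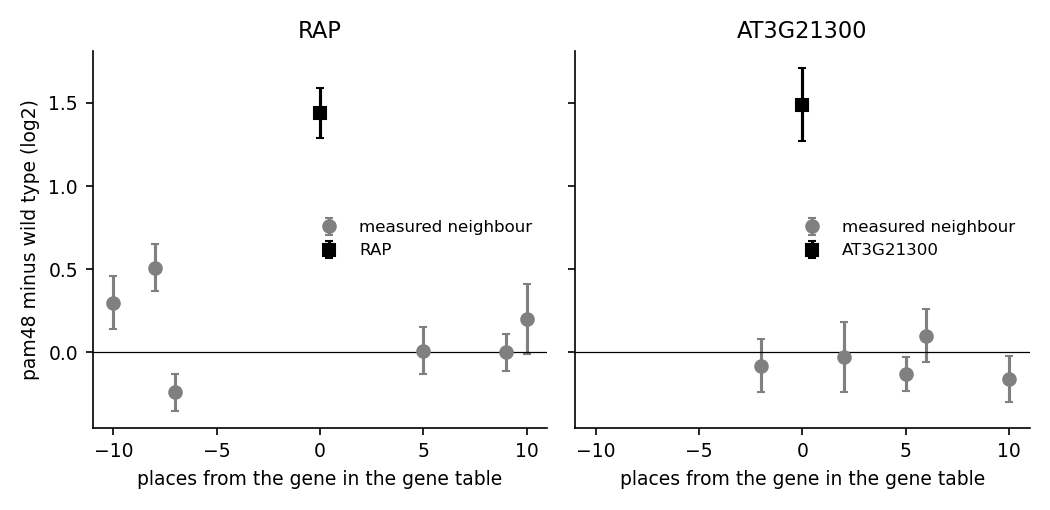
Difference pam48 minus wild type (log2, ± SE, n = 3 per genotype) of RAP (left) and AT3G21300 (right), black squares, and of their measured neighbours, grey circles, by the number of places from the gene in the gene table. The 11 neighbours lie between −0.24 and 0.51, below the 1.44 of RAP and the 1.49 of AT3G21300.

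Other factors of plastid rRNA maturation and ribosome assembly were described from a list of 32 genes, of which 11 were measured by a probe set with 1 gene. The list was written from general knowledge of these genes, with RAP left out. None of the 11 was called by limma in either direction. The differences were positive in 10 of the 11 and lay between −0.09 and 0.63, with a median of 0.36, where the median over all probe sets was −0.03 and 44.7% were positive. An unadjusted p under 0.05 was reached by 5 of the 11, all higher in pam48, where 6.79% of all probe sets were higher and 6.67% lower at that level. Among the probe sets left after the dimmest 40% were removed, 9.17% were, 50.8% had positive differences and the median was 0.01. The list median stayed between 0.31 and 0.45 when an array was left out.

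Within this list the difference was largest in AT5G10910, listed as the methyltransferase of plastid 16S rRNA known as CMAL. Its level was 7.56, 7.93 and 7.77 in wild type and 8.12, 8.52 and 8.48 in pam48, a difference of 0.63 ± 0.16 (limma adjusted p = 0.162). The genotypes did not overlap, and the difference was smaller than that of RAP. AT5G66470, listed as a GTPase related to bacterial Era, a factor of small subunit assembly, stood at 9.53, 9.80 and 9.42 in wild type and at 10.31 and 10.23 on pam48 replicates 2 and 3 (0.59 ± 0.15, limma adjusted p = 0.155). pam48 replicate 1 was 0.19 above the highest wild-type array.

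For the large subunit, AT5G46580, listed as SOT1, a pentatricopeptide repeat protein of rRNA maturation, had a difference of 0.51 ± 0.16 (limma adjusted p = 0.244). PAC (PALE CRESS), a plastid protein needed for large-subunit rRNA to accumulate, had 0.50 ± 0.18 (limma adjusted p = 0.297), and RH39, an RNA helicase that helps to cut this rRNA inside the ribosome, 0.49 ± 0.16 (limma adjusted p = 0.264). AT3G06980, listed as the helicase RH50, was the 1 member with a negative difference (−0.09 ± 0.17). The genotypes did not overlap in 4 of the 11 genes, each time with pam48 higher, as in RAP, against 9.14% of all probe sets and 11.7% of those left after the dimmest 40% were removed.

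RNA methyltransferases, the enzyme class of AT3G21300, had called members. Of 32 genes listed, 29 were measured, AT3G21300 not counted. Of these, limma called 4 higher in pam48 and 0 lower, against 0.598% and 0.18% of all probe sets, and did not call 25. One of the 4, AT4G38020, was known from an earlier analysis of these arrays to rise when the list was written, and by locus number it lies near MTERF6. Without it 3 of 28 were called. The median difference was 0.22 (−0.03 over all probe sets), and 26 of the 29 were positive (44.7% of all). Of the 29, 12 were higher at an unadjusted p under 0.05 and none lower (6.79% and 6.67% of all). In 13 the genotypes did not overlap, all with pam48 higher (9.14% of all probe sets). Among the probe sets left after the dimmest 40% were removed, these shares were 50.8% positive, 9.17% higher at that p and 11.7% without overlap and pam48 higher.

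The largest rise in the list was that of AT4G26600, listed as related to yeast Nop2, a nucleolar protein that methylates rRNA of the cytosolic ribosome in yeast. It was at 4.79, 5.20 and 5.03 in wild type and 5.98, 6.48 and 6.56 in pam48, a rise of 1.33 ± 0.19 (limma adjusted p = 0.0448). All mutant arrays lay above all wild-type arrays, as in AT3G21300. AT4G27340, listed as related to yeast Trm5, a tRNA methyltransferase, rose from 7.45, 7.86 and 7.93 to 8.76, 8.85 and 8.79, by 1.05 ± 0.15 (limma adjusted p = 0.0437).

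The other called members belong to the SpoU family, which methylates riboses of tRNA and rRNA. AT4G38020 was at 7.52, 7.67 and 7.63 in wild type and at 8.39, 8.59 and 8.43 in pam48 (0.86 ± 0.11, limma adjusted p = 0.0349). AT4G17610 was at 6.54, 6.54 and 6.66 in wild type and at 7.33, 7.63 and 7.31 in pam48 (0.84 ± 0.12, limma adjusted p = 0.0466). Neither gene had an array that overlapped with the other genotype. With the replicate number as a block AT4G17610 was not called (limma adjusted p = 0.0525), so that 3 members were, with 1.81% of all probe sets called and 1.05% called higher. Each of the 4 kept its call in 1 fit when single arrays were left out: the list had 7 calls without pam48 replicate 1 and 0 without any 1 of the others.

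Among members not called the largest differences were those of AT4G40000 (1.11 ± 0.21), AT1G06560 (0.78 ± 0.20), AT4G25730 (0.65 ± 0.12), AT5G10910, which is in both lists, and AT2G39670 (0.56 ± 0.15). AT4G40000 is listed as related to yeast Trm4, a tRNA methyltransferase, AT1G06560 with the NSUN family of RNA methyltransferases, AT4G25730 with that of bacterial FtsJ, an rRNA methyltransferase, and AT2G39670 with that of bacterial RlmN, which methylates adenine. In all 5 the genotypes did not overlap, with pam48 higher (9.14% of all probe sets), but picking the largest differences favours such genes. AT2G28450, listed as related to yeast Trm2, had 0.29 ± 0.16. The lowest difference in the list was −0.23 ± 0.26, in AT3G56120, which is listed beside AT4G27340 as related to Trm5.

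**Figure D3:**
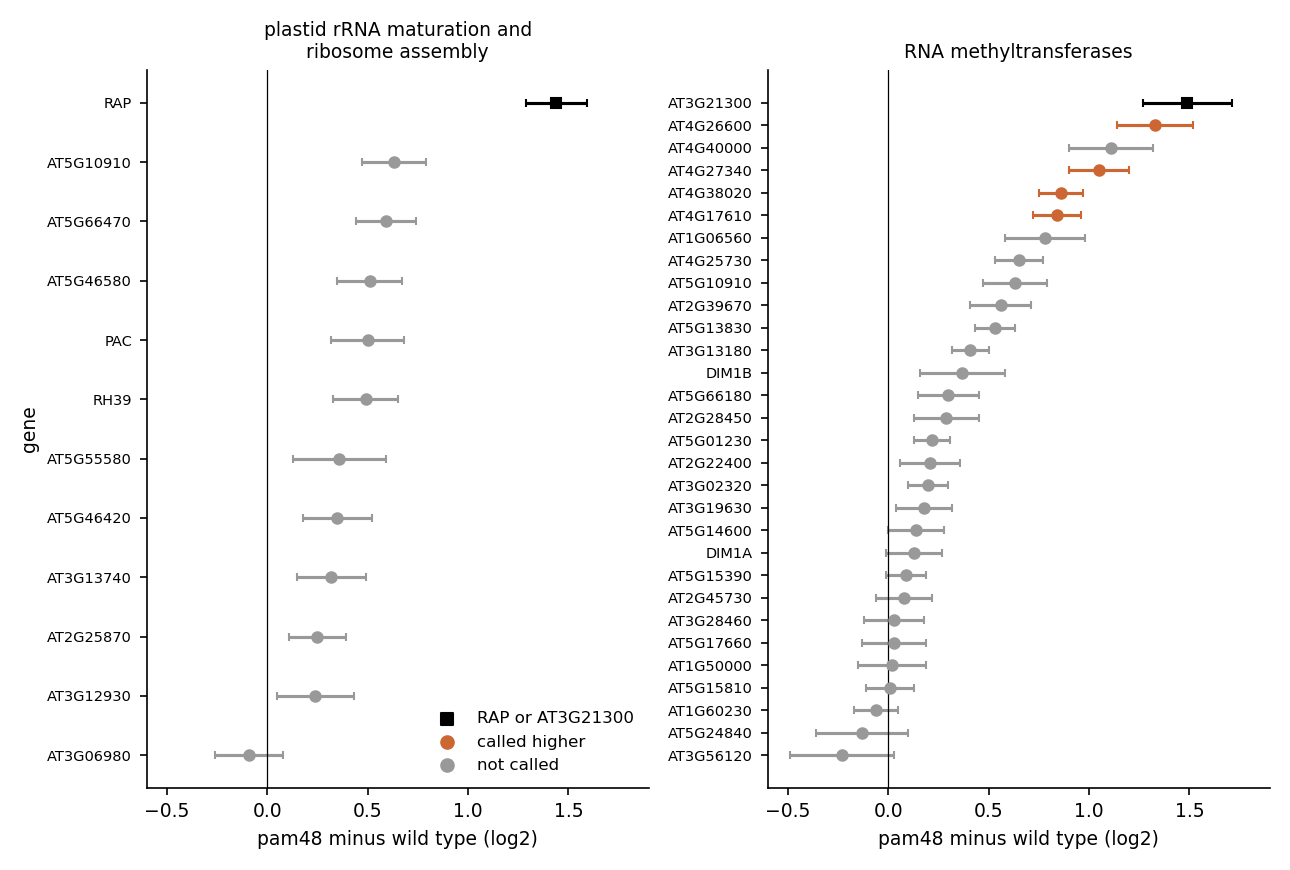
Difference pam48 minus wild type (log2, ± SE, n = 3 per genotype) of the measured genes of plastid rRNA maturation and ribosome assembly (left) and of RNA methyltransferases (right), with RAP and AT3G21300 as black squares. Orange marks genes called higher by limma and grey genes not called; 0 of 11 and 4 of 29 listed genes are called.

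The patterns of RAP and AT3G21300 over the arrays were alike between genotypes and unlike within them. Pearson's r between the probe sets was 0.905 over the 6 arrays, a value set mostly by the separation of the genotypes. Between their deviations from the genotype means it was −0.241. Among 13512 other probe sets with 1 gene, AT3G21300 came at place 339 by likeness to RAP over the 6 arrays. All these correlations share the same 6 arrays and are given as a description.

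The 5 probe sets most like RAP over the 6 arrays were those of AT5G27395 (r = 0.997), AT3G56330 (0.996), AT4G27340 (0.996), AT1G51310 (0.995) and AT1G09300 (0.993). All 5 were lowest on wild type replicate 1, as RAP was, and were called higher in pam48 by limma, with differences of 0.84 ± 0.11, 1.01 ± 0.11, 1.05 ± 0.15, 1.32 ± 0.13 and 1.26 ± 0.13. AT4G27340 is also a called gene of the methyltransferase list. Most like AT3G21300 were AT5G23330 (r = 0.998), AT2G15000 (0.995), AT1G71850 (0.993), LPA1 (0.991) and AT1G13030 (0.99). They were lowest on wild type replicate 3 within wild type and on pam48 replicate 1 within the mutant. Of these AT2G15000 was called (1.21 ± 0.16, limma adjusted p = 0.0410), and the genotypes did not overlap in any of these 5 or of the 5 most like RAP. Of all probe sets 0.598% were called higher and 9.14% did not overlap with pam48 higher, but likeness to a gene that separates the genotypes picks such probe sets, so nothing is read from these counts. LPA1, a gene for a protein of photosystem II assembly, had a difference of 0.47 ± 0.11. The called genes among these, like RAP and AT3G21300 themselves, kept their call in 1 of 6 fits with an array left out. The lists had 0 probe sets in common.

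**Figure D4:**
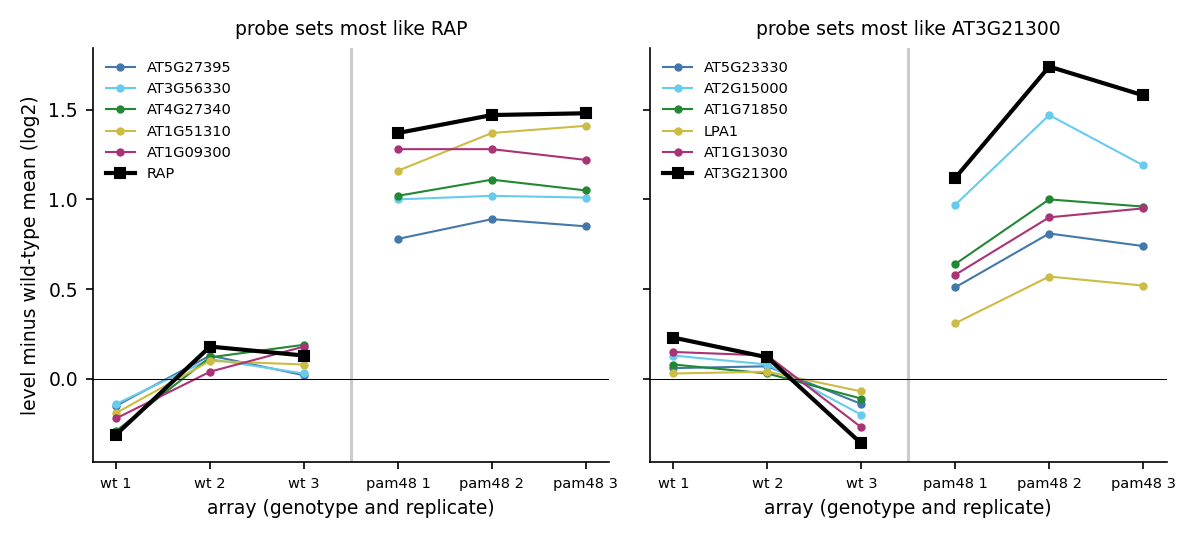
Level minus the wild-type mean (log2) on the 6 arrays for RAP (left, black) and AT3G21300 (right, black) and the 5 probe sets most like each by Pearson's r over the 6 arrays (colours). Lines only join the points of a gene within a genotype; the probe sets with RAP are lowest on wild type replicate 1, and those with AT3G21300 are lowest on wild type replicate 3 among wild-type arrays and on pam48 replicate 1 among pam48 arrays.

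Likeness of the deviations from the genotype means, which leaves the genotype difference out, picked other probe sets. For RAP these were AT1G24560, AT2G07440, AT5G15690, AT3G10240 and AT4G11000, with r between 0.995 and 0.999 and differences between −0.09 and 0.39. For AT3G21300 they were AT4G21105, AT3G47590, AT5G15320, AT1G53600 and AT1G09130, with r between 0.989 and 0.994 and differences between −0.28 and 0.28. None of these 10 was called by limma (0.778% of all probe sets were), and 1, AT1G09130, had an unadjusted p under 0.05 (13.5% of all). AT2G07440, AT5G15690 and AT3G10240 were dim and varied little, at 3.62 to 3.78, 4.11 to 4.27 and 3.98 to 4.13 over the 6 arrays. The r values are the highest among 13512 probe sets on 6 arrays, so no shared regulation is read from them.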

How the data were processed

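Each array was hybridized from 5 µg of total RNA, per the labels' protocols. The deposited values are log2 summaries per probe set, which the authors computed by RMA, per the submitters' processing notes; its version and the probe set definition are not stated there, and the log2 scale was read from the values. Of 22810 rows 64 were control probe sets, which left 22746 to test. GEO's platform annotation gave 1 gene for 13513 of them, several for 503 and none for 8730, and 13436 of the first were matched to a gene table (TAIR10.1) that served for names and gene order only.

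pam48 was set against wild type by limma 3.58.1 under R 4.3.3 (linear model, moderated by eBayes, two-sided, Benjamini-Hochberg over 22746 probe sets). The procedure had first been run on simulated data with noise independent between arrays, so deviations shared by arrays of the same number were not tried there. A gene with several probe sets was represented by the one with the highest mean. RAP, AT3G21300 and the gene lists were chosen with earlier results of these data known. Of the listed methyltransferases, 1 was dropped because the gene table names it AGL26. Named were, besides both genes, the 5 probe sets most like each by 2 measures, the called and the 5 largest uncalled members of each list, and the nearest measured neighbours, 36 in all, of which 9 were called. MRL7-L, AT3G06980, AT2G28450 and AT3G56120 were named after their values were seen.

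Arrays with the same number deviated together from their genotype means (r = 0.53, 0.20 and 0.54), while r between other numbers was −0.50 to 0.11. The numbers were therefore treated as pairs in an alternative fit, from the data and not from the labels. The main fit has no block, so its errors and calls leave this pairing out. Alternatives were the replicate block, quantile normalization, median centring, leaving out the dimmest 40%, trend and robust settings, array weights, each array left out, and a threshold of 0.01. The labels call the replicates biological but do not say that they came from separate sowings. The p-values therefore judge the genotype difference only against the spread between these samples. No sequences were used here, so a planned promoter motif search was not run. The number of arrays limits the precision.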

Additional observations from a re-analysis of the deposited data

How the results depend on the processing

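The differences of RAP and AT3G21300 kept their direction in all 12 fits that could be compared with the main one, at 1.38 to 1.44 and 1.43 to 1.5 without leaving out an array. The 177 called probe sets became 412 with the replicate block, 351 with array weights, 8 at an adjusted p under 0.01 and 1 to 291 on leaving out single arrays; the cause was not tested. For the 4 called methyltransferases this range was 0 to 7. The block ended the call of AT4G17610 and no other call of a gene named here; trend and robust settings ended that of AT4G17610 (adjusted p = 0.0642) and of AT5G27395 (0.0526), and quantile normalization that of AT3G21300. Calls were gained by AT4G40000 (adjusted p = 0.0189), AT1G71850 (0.0175), AT5G23330 (0.0382) and AT4G25730 (0.0387) with array weights and by AT1G71850 (0.0453) with quantile normalization, and without pam48 replicate 1 by these 4 and AT1G06560. No called gene changed direction. Differences that did were near 0: AT2G07440 (−0.03) and CHX21 (−0.04) with median centring, AT3G10240 (0.05) and AT3G21310 (0.01) with quantile normalization, and CHX21 (−0.12) and AT3G21310 (0.08) with array weights. With an array left out, differences spanned 0 in AT2G07440 (−0.02 to 0.05), AT3G10240 (−0.05 to 0.02), AT3G47590 (−0.40 to 0.04), AT5G15320 (−0.33 to 0.03), CHX21 (−0.08 to 0.10), AT3G21290 (−0.18 to 0.07) and AT3G21310 (−0.26 to 0.12). The lists of rRNA maturation and of chromosome neighbours had 0 calls in every fit. The organelle rRNA genes were not looked for among probe sets of several genes. The fits of the neighbours and the second background without dim probe sets were added after the data were seen. Signal over background was not examined.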
